A study of Mus musculus with 6 samples.

Results

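The Id genes Id1, Id2, Id3 and Id4 and the E-protein genes Tcf3, Tcf4 and Tcf12 were followed in day 2 epiblast-like cells (EpiLCs) with and without Smad2 and Smad3. These 7 genes were taken by symbol from the 24288 symbols of the expression table, with the entry of highest total where a symbol had several, and all 7 passed the filter on low values that left 17038 genes for testing. In the double-knockout cells the 4 Id genes rose by 4.10 to 92.7 times, Tcf12 fell 1.67-fold, and Tcf4 and Tcf3 moved by less than 1.5-fold. Reads from Id genes were 0.0548 of the reads from E-protein genes in wild-type cells and 1.01 of them in the knockout cells.

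EpiLCs are mouse embryonic stem cells (ESCs) that are moved out of the naive state toward an early post-implantation epiblast state. Wild-type (WT) cells were of the CCE line (3 libraries) and Smad2/3 double-knockout (DKO) cells of the clone KT15.1F6 (3 libraries), both with the strain label 129/Sv//Ev. The DKO clone was made by targeting the Smad3 promoter and deleting exon 1 of Smad3 in Smad2-/- ESCs. In both genotypes ESCs from N2B27 with 2 inhibitors and LIF were grown for 48 h in N2B27 with 20 ng/ml activin A, 12 ng/ml Fgf2 and KSR on fibronectin. Each library came from a differentiation of its own, but each genotype was represented by 1 line, so that line and genotype cannot be told apart and replicate spread covers differentiations only. Total RNA was depleted of ribosomal RNA and sequenced as stranded libraries, and the libraries held 57644143 to 63046034 recovered reads each, with 1 entry counted per gene. Values are normalized reads per gene body, introns included: counts scaled by the size factor of their library and not by gene length.

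Helix-loop-helix proteins bind DNA as pairs. E proteins carry a basic region that contacts the E box CANNTG, and they pair with each other or with tissue-restricted class II basic helix-loop-helix (bHLH) factors. Id proteins have the helix-loop-helix but lack the basic region, so an E protein held by an Id protein does not bind DNA. Id genes are well-known direct targets of Bmp signals through Smad1 and Smad5, whereas Smad2 and Smad3 carry Nodal and activin signals.

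The 250 bases before the start of Id2 and Id4 are shown because these are the Id genes whose promoters held GGCGCC, a GC-rich element bound by Bmp-activated Smads. Sequences are from RefSeq (GRCm38.p6) and run 5′ to 3′ on the strand of the gene, up to the base before the start. Capitals mark GGCGCC and the E box CANNTG.
Id2, chr12:25096093-25096342, minus strand: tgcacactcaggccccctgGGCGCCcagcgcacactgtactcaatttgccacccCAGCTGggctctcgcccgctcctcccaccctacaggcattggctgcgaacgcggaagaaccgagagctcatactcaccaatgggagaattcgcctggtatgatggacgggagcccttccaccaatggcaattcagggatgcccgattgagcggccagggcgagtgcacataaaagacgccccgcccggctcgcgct
Id4, chr13:48260866-48261115, plus strand: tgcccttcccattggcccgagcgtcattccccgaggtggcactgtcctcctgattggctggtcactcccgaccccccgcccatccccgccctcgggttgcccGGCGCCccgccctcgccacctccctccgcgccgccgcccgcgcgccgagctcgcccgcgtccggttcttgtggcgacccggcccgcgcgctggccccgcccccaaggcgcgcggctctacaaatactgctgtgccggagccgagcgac
In Id2, GGCGCC began 231 bases and an E box, CAGCTG, 196 bases before the start. Id4 held GGCGCC at 148 bases and no E box. The promoter of Id3 (chromosome 4, 136143572 to 136143821) held neither, but had CAGAC, the Smad box, at 167 bases and, on the other strand, at 68 bases. Both strands were searched for the GC-rich element, the Smad box and the E box as spelled above, and no match overlapped another. Promoter sequences were matched for 5 of the 7 members, namely Id2, Id3, Id4, Tcf3 and Tcf12. Among 32851 promoters of the same length, 9.59% held GGCGCC, 42.2% held CAGAC and 66.2% held CANNTG, so each is a common string and a match is a description only.

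The knockout was checked first. WT libraries held 839 ± 37.0 normalized reads of Smad3 and DKO libraries 23.6 ± 6.16 (mean ± SD, n = 3). The log2 fold change was -5.12 with an SE of 0.13 (adjusted p by limma 7.91e-22). Smad2 was at 4520 ± 86.3 in WT against 5062 ± 109 in DKO, so this gene-body count does not by itself show the Smad2 mutation. Of the 7 epiblast markers, Pou5f1, Otx2, Dnmt3b and Utf1 did not pass the threshold, Fgf5 and Pou3f1 fell and Sox2 rose. Their summed level was 108768 to 112792 normalized reads in WT and 105266 to 106799 in DKO, of which Dnmt3b alone averaged 70390 and 65421. The sum thus says little about smaller members, as mean Fgf5 went from 3235 to 798 and mean Sox2 from 2798 to 7741.

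Expression of the 4 Id genes was compared to ask how far this family depends on the Smad2/3 genotype. A gene was called changed at an adjusted p under 0.05 (limma, Benjamini-Hochberg over all 17038 genes) with a fold change above 1.5. By this rule 15.4% of all tested genes changed, 7.35% being higher and 8.04% lower in DKO. All 4 Id genes were higher in DKO, a count that is not independent evidence because these genes were already known to differ in these libraries. The same holds for other listed genes, among them Gata2, Gata3, Tfap2c, Fgf5, Pou3f1, Klf2 and Zfp42. The median log2 fold change of the 4 Id genes was 3.39, beside 0.000122 over all genes. Without overlap between the groups were 59.0% of all tested genes, and 29.7% were without overlap and higher in DKO, as were all 4 Id genes.

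Id1 (NM_010495, chromosome 2, 152736251 to 152737410, GRCm38.p6) encodes the Id protein most often used as a readout of Bmp signals. Its 3 WT libraries held 46.2, 52.4 and 46.9 normalized reads and its 3 DKO libraries 4738, 4560 and 4185. Every DKO value was far above every WT value, with the lowest DKO library at 79.9 times the highest WT library. The log2 fold change was 6.51 ± 0.06 (± SE; limma adjusted p = 1.83e-30), which was the largest increase among the 17038 genes tested. Behind the WT values stood 86 to 92 reads per library and behind the DKO values 8073 to 8804.

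Id3 (NM_008321, chromosome 4, 136143822 to 136145392), which often acts redundantly with Id1, was the next in order. It measured 120, 114 and 132 normalized reads in WT and 2772, 2668 and 2475 in DKO. The groups were again far apart, by 18.7 times between the nearest libraries. The log2 fold change of 4.42 ± 0.06 (limma, adjusted p = 2.19e-27) was the 6th largest increase of all genes.

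Id2 (NM_010496, chromosome 12, 25093799 to 25096092, minus strand) encodes the Id protein best known from lymphoid and mammary cells. The WT libraries held 391, 455 and 387 normalized reads and the DKO libraries 2125, 2169 and 2013. Its groups did not overlap, and the lowest DKO library was 4.43 times the highest WT library. The change was 2.35 ± 0.05 on the log2 scale (limma, adjusted p = 1.46e-22), 5.11-fold between the means, and ranked 47th among increases.

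Id4 (NM_031166, chromosome 13, 48261116 to 48266028), known mainly from neural and germline stem cells, rose least. Values were 20.4, 26.7 and 18.1 normalized reads in WT and 94.2, 91.4 and 81.9 in DKO. Despite few reads, 34 to 47 per WT library and 158 to 175 per DKO library, the groups were apart by 3.06 times between the nearest values. The log2 fold change was 2.00 ± 0.18 (limma, adjusted p = 3.77e-10), 4.10-fold between the means, and its WT coefficient of variation was 20.5%. A long non-coding gene, A330033J07Rik, overlaps 1508 of the 4913 bp of Id4, and whether strand was used in counting is not given in the sources used here. That neighbour was not called, with means of 7.44 (WT) and 9.79 (DKO).

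**Figure D1:**
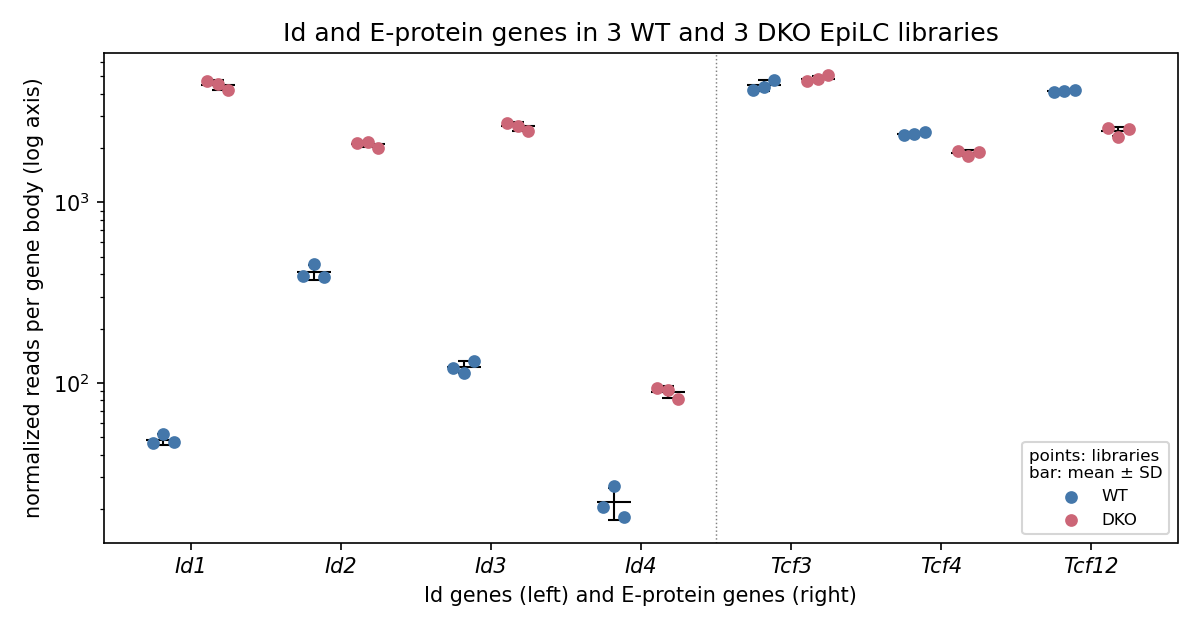
Normalized reads per gene body (log axis) of the 4 Id genes, left of the dotted line, and the 3 E-protein genes, right of it, in each WT (blue) and DKO (red) library, with mean ± SD (n = 3). The Id genes are separated by genotype in all libraries, from 3.06 times between the nearest libraries for Id4 to 79.9 times for Id1, whereas the Tcf3 values of both genotypes overlap.

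The Id genes did not rise in proportion. On the log2(value + 1) scale, the ratio of Id1 to Id3 reads went from -1.31 ± 0.19 in WT to 0.77 ± 0.01 in DKO, a difference of 2.08. Id1 gained still more on Id2, by 4.15, from -3.06 ± 0.04 to 1.09 ± 0.05. Id2 and Id4 moved more nearly together, since their log2 ratio was 4.19 ± 0.15 in WT and 4.55 ± 0.06 in DKO, which is a difference of 0.35. The makeup of the family therefore changed.

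Levels of different genes were compared per kilobase of annotated exons. Reads in introns are still counted, so genes with long introns stand higher on this scale than per kilobase of gene body. In WT, Id2 was the leading Id gene with 324 ± 29.8 normalized reads per kb, or 67.8 ± 2.22% of the family sum (SD, n = 3). Id3 followed with 20.1 ± 2.47% and Id1 with 10.9 ± 0.09%. In DKO, Id1 led with 4812 ± 302 normalized reads per kb and 56.2 ± 0.46% of the sum. Id3 was second with 24.1 ± 0.14%, and Id2 dropped to 19.4 ± 0.57% although its own level rose. Id4 supplied 1.18 ± 0.17% in WT and 0.271 ± 0.005% in DKO. The shares of Id1, Id2 and Id4 did not overlap between the genotypes, and nor did that of Id3, whose WT libraries spanned 17.5 to 22.3% and DKO libraries 24.0 to 24.3%. Per kilobase of gene body the Id3 share overlapped, at 25.7 ± 2.93% and 25.9 ± 0.11%, while Id2 still led in WT with 59.0% and Id1 in DKO with 59.7%. These shares were not tested.

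**Figure D2:**
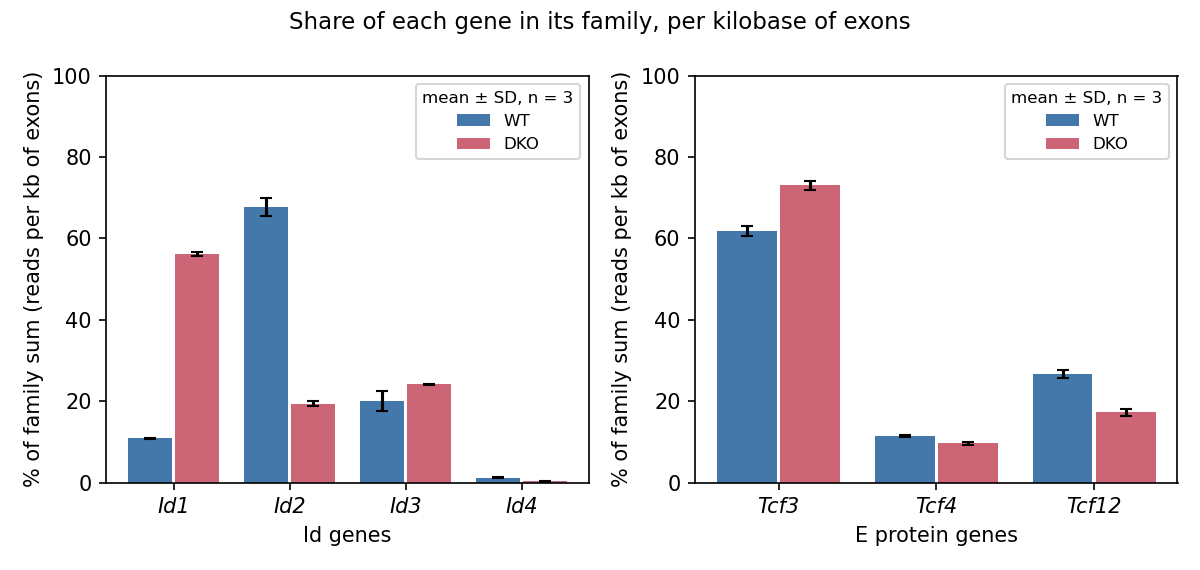
Share of each gene in the summed normalized reads per kilobase of exons of its family (%, mean ± SD, n = 3), with Id genes on the left and E-protein genes on the right, in WT (blue) and DKO (red). Id2 has the tallest WT bar among the Id genes (67.8%) and Id1 the tallest DKO bar (56.2%), while Tcf3 leads the E-protein genes in both genotypes. The reads include introns, though the length is that of exons.

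The E-protein genes behaved differently from the Id genes and from each other. Of the 3, Tcf12 fell by the rule above, and Tcf3 and Tcf4 were not called. Their median log2 fold change was -0.36. Groups without overlap and with lower values in DKO were seen for Tcf4 and Tcf12, as for 29.3% of all tested genes. All 3 had adjusted p-values under 0.05, as did 53.4% of all tested genes regardless of fold. That of Tcf3 was 0.073 without WT replicate 1 and 0.0531 without DKO replicate 3 (limma).

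Tcf3 (NM_001164147, chromosome 10, 80409541 to 80433976, minus strand) encodes E2A, whose splice forms E12 and E47 are the best-known E proteins, and is not the Tcf7l1 gene that was once given the same name. It had 4215, 4389 and 4797 normalized reads in WT and 4694, 4818 and 5067 in DKO. The groups overlapped, since the highest WT library exceeded the lowest DKO library. The log2 fold change was 0.12 ± 0.04 (limma, adjusted p = 0.00665), 1.09-fold between the means. All 8 entries of the gene carried the same values, so splice forms cannot be told apart.

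Tcf4 (NM_013685, chromosome 18, 69343429 to 69687967) encodes E2-2, which is prominent in neural and plasmacytoid dendritic cells. Its values were 2375, 2385 and 2460 normalized reads in WT and 1927, 1803 and 1909 in DKO. Every DKO library was below every WT library. The decrease of -0.36 ± 0.04 on the log2 scale (limma, adjusted p = 2.58e-09) was 1.28-fold between the means, under the fold threshold.

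Tcf12 (NM_011544, chromosome 9, 71844252 to 72111893, minus strand) encodes HEB, which together with E2A is known as a partner of Smad2/3 complexes in early mesendoderm. The WT libraries were close to each other at 4085, 4167 and 4178 normalized reads, and the DKO libraries held 2572, 2318 and 2544. The groups were well separated. The log2 fold change was -0.74 ± 0.03 (limma, adjusted p = 8.25e-16), and 1.67-fold lower between the means.

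Since Tcf12 has a short entry, NM_001253863, that starts inside the gene and ends close to its downstream end, reads could be set apart by position. Over the 52.1 kb of the short entry, WT libraries held 2316 ± 58.4 normalized reads and DKO libraries 1419 ± 53.5, a ratio of 0.613. Over the other 217 kb, counted in the long entry alone and nearly all upstream, the values were 1827 ± 16.3 and 1059 ± 136, a ratio of 0.580. The downstream part held 55.9 ± 0.77% of the reads in WT and 57.4 ± 3.41% in DKO, and these shares overlapped. Both stretches were thus lower by a like amount, with the DKO values of the upstream stretch more scattered (1193, 920 and 1064). These stretches are long and mostly intronic, so they follow total RNA over the gene rather than single isoforms.

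Among the E-protein genes, Tcf3 led per kilobase of exons in both genotypes, with 1526 ± 102 normalized reads per kb in WT and 1660 ± 64.9 in DKO. Its share of the family went from 61.9 ± 1.26% to 73.0 ± 1.20%, while that of Tcf12 went from 26.7 ± 0.96% to 17.3 ± 0.87%. Tcf4 held 11.4 ± 0.31% and 9.65 ± 0.35%. No pair of genotypes overlapped in these shares, and the order of the 3 genes was the same in WT and DKO. Per kilobase of gene body, Tcf3 held 89.0% in WT and 93.1% in DKO, Tcf12 7.56% and 4.34%, and Tcf4 3.41% and 2.56%.

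The balance of the families was then expressed as the ratio of summed Id reads to summed E-protein reads in each library, which does not depend on the size factor. Summed Id reads were 578, 648 and 585 normalized reads in WT and 9729, 9488 and 8754 in DKO. Summed E-protein reads were 10675, 10941 and 11436 in WT and 9193, 8940 and 9519 in DKO. Id reads were thus 15.5 times higher in DKO on average, and E-protein reads were 0.837 of the WT mean. Id1 made up 51.0% of the gain in Id reads, Id3 28.9%, Id2 19.4% and Id4 0.773%.

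The ratio was 0.0542, 0.0592 and 0.0511 in the WT libraries and 1.06, 1.06 and 0.920 in the DKO libraries. The genotypes did not overlap, with the lowest DKO ratio 15.5 times the highest WT ratio. The means were 0.0548 ± 0.0041 and 1.01 ± 0.08 (SD, n = 3 each), 18.5-fold apart, with no test because the sum is over chosen genes. The size of the ratio depended strongly on gene length, as Id genes are short and E-protein genes long. Per kilobase of exons, with intron reads still counted, it was 0.194 ± 0.015 in WT and 3.77 ± 0.32 in DKO. Per kilobase of gene body it was 1.48 ± 0.12 and 30.4 ± 2.81. The fold between the genotypes moved little with length, at 19.5 and 20.6. Without Id1 the ratio was 0.0504 in WT and 0.525 in DKO, 10.4-fold apart, so the separation did not rest on Id1 alone. None of these ratios is a ratio of proteins.

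**Figure D3:**
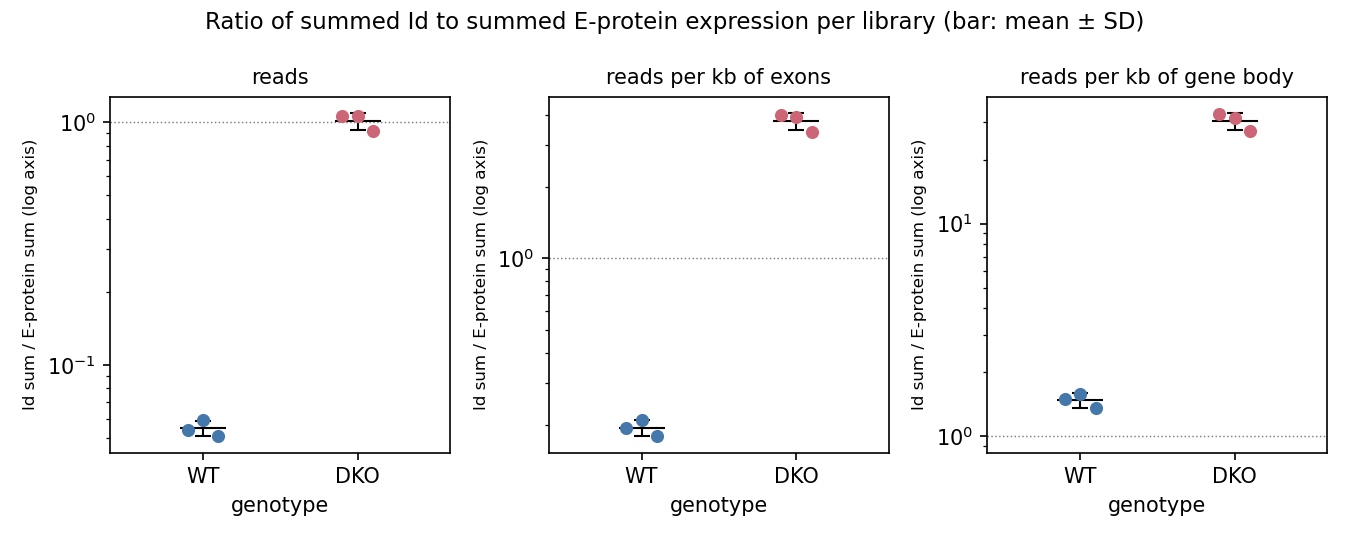
Ratio of summed Id to summed E-protein expression in each library on log axes, computed from reads (left), reads per kilobase of exons (middle) and reads per kilobase of gene body (right), with mean ± SD (n = 3) and a dotted line at a ratio of 1. WT libraries lie near 0.0548 and DKO libraries near 1.01 in the left panel, and the distance between genotypes is similar in all 3 panels, whereas the position relative to 1 is not.

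Within the DKO group, replicate 3 had the lowest value for each of the 4 Id genes, with deviations from the DKO mean of -4.25% for Id2 to -8.15% for Id4, and the highest value for Tcf3, at 4.27% above the mean. That library thus also had the lowest ratio. In WT, replicate 2 was highest for Id1, Id2 and Id4, by 7.95%, 10.6% and 22.9%, but lowest for Id3 (-6.82%). These deviations are small beside the differences between genotypes.

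Other genes of the pathway were taken from lists. Bmp response genes other than Id had 15 members, of which 13 were tested. Of these 8 rose in DKO, 1 fell and 4 were not called, beside 7.35% higher and 8.04% lower among all tested genes. The list's median was 1.58 on the log2 scale. Msx2, Dlx3, Dlx5, Gata2 and Gata3 passed the filter on low values through DKO libraries only and so could enter only as higher, and among the 8 that passed in both genotypes 3 rose and 1 fell. The 8 were Gata3, Gata2, Dlx5, Msx2, Tbx3, Tfap2a, Dlx3 and Msx1, all of which encode transcription factors. Gata3 went from 3.25 ± 1.35 to 116 ± 10.7 normalized reads (4.82 ± 0.25 on the log2 scale). Msx2, a homeobox gene, went from 7.32 ± 1.89 to 35.0 ± 1.17 (2.14 ± 0.27).

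The inhibitory Smads of the same list did not move together. Smad7, which blocks receptors of both the Nodal and the Bmp branch, was the member that fell. WT libraries held 1946 ± 83.0 normalized reads of it and DKO libraries 456 ± 20.3, which is -2.09 ± 0.05 on the log2 scale. Smad6, which acts mainly on the Bmp branch, was at 195 ± 14.4 in WT against 287 ± 17.1 in DKO. Its log2 fold change of 0.56 ± 0.08 was just under the fold threshold. Bambi, a decoy receptor, was not called at -0.20 ± 0.06.

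The transducers themselves were not called, by limma, edgeR or DESeq2. All 4 had an adjusted p under 0.05 by limma but did not reach the fold threshold. Among all tested genes 53.4% had such an adjusted p and 15.4% were called by limma, so no call in lists this small says little. Smad1, Smad5 and Smad9, the receptor-activated Smads of the Bmp branch, and Smad4, the common partner, had log2 fold changes of -0.37 to 0.14 and a median of -0.08. WT and DKO means were 1239 ± 48.7 and 1018 ± 55.8 for Smad1, and 1320 ± 55.1 and 1443 ± 29.8 for Smad5. These counts say nothing about phosphorylation. Genes for turnover of Id proteins were not called by these tools in 3 of 3 cases, with the same limit. Of these, Fzr1 and Smurf2 had an adjusted p under 0.05 by limma but stayed under the fold threshold. Usp1, which removes ubiquitin from Id proteins, had a log2 fold change of 0.01 ± 0.03, Fzr1, an activator of the anaphase-promoting complex, one of 0.13 ± 0.03, and Smurf2, a ubiquitin ligase, one of 0.09 ± 0.03.

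Class II bHLH genes, whose products typically, though not always, bind DNA paired with an E protein, had few reads in these cells. Of 38 members, 17 did not pass the filter on low values, and Neurod6, Nhlh2 and Ferd3l had no read in any library. Among the 21 tested, 8 were higher in DKO, 2 were lower and 11 were not called, with a median log2 fold change of 0.17. Among all tested genes 7.35% were higher and 8.04% lower. Tcf15, known as a priming factor of the epiblast that Id proteins hold in check, held the most reads of the list (not scaled for length), 739 ± 34.3 in WT against 613 ± 36.2 in DKO. Its log2 fold change of -0.27 ± 0.05 (limma, adjusted p = 0.000158) was under the fold threshold.

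The 8 higher class II genes were Ascl2, Neurog3, Mesp2, Atoh1, Hand1, Bhlhe23, Myog and Olig3. Ascl2, a regulator of trophoblast, measured 77.4, 86.5 and 75.7 normalized reads in WT and 270, 267 and 199 in DKO, without overlap (1.59 ± 0.11). Neurog3, the endocrine pancreas factor, went from 150 ± 20.6 to 243 ± 10.2 (0.70 ± 0.10). Myog, Hand1 and Olig3 among them passed the filter through DKO libraries only, as the lower genes Myf5 and Msc did through WT libraries only. DESeq2 called 6 of the 8, without Bhlhe23 and Myog. The 6 other than Ascl2 and Neurog3 stayed at or under 60.1 normalized reads in every library. Myf5, a muscle determination gene, was the clearest decrease, from 35.5, 35.3 and 38.4 to 3.23, 3.15 and 4.15 (-3.06 ± 0.29), and Msc also fell (-0.92 ± 0.35).

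Most Hes, Hey and Bhlhe genes encode bHLH repressors that bind DNA without E proteins. Of 12 members 9 were tested, and 8 of these were lower in DKO and 1, Hey2, was not called, by limma, edgeR and DESeq2 alike. Among all tested genes 8.04% were lower by limma. The list's median log2 fold change was -1.15, and no gene of the list rose at an unadjusted p under 0.05. Hes1, the classical Notch-responsive repressor, had 286, 312 and 297 normalized reads in WT and 65.7, 52.5 and 50.8 in DKO. Its groups were far apart (-2.39 ± 0.11, limma, adjusted p = 6.51e-16). Hes6, with the most reads of the list, went from 1621 ± 81.0 to 1015 ± 34.7 (-0.67 ± 0.04), and Bhlhe40 from 186 ± 7.88 to 83.5 ± 12.4 (-1.15 ± 0.11). Hes2, Hes3, Hey1, Helt and Bhlhe41 fell by 0.91 to 1.78 on the log2 scale from WT means of 7.25 to 33.9, and Helt passed the filter through WT libraries only.

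Genes tied to E-protein activity in other cells include cell cycle inhibitors and cadherins. Of 9 members 8 were tested, 2 were lower and 6 were not called by any of the 3 tools, beside 15.4% called among all tested genes, and the median log2 fold change was -0.29. Of the 6, 2 were higher and 3 lower at an adjusted p under 0.05 by limma, short of the fold threshold. The 2 lower genes were Cdh2, encoding N-cadherin (821 ± 24.0 to 474 ± 6.96, -0.79 ± 0.05), and Zbtb18, encoding a repressor (692 ± 10.6 to 440 ± 8.89, -0.65 ± 0.05). Cdh1, encoding E-cadherin and known to be repressed by E proteins, held the most reads, 19012 ± 515 in WT against 16050 ± 210 in DKO, and was not called (-0.24 ± 0.02).

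**Figure D4:**
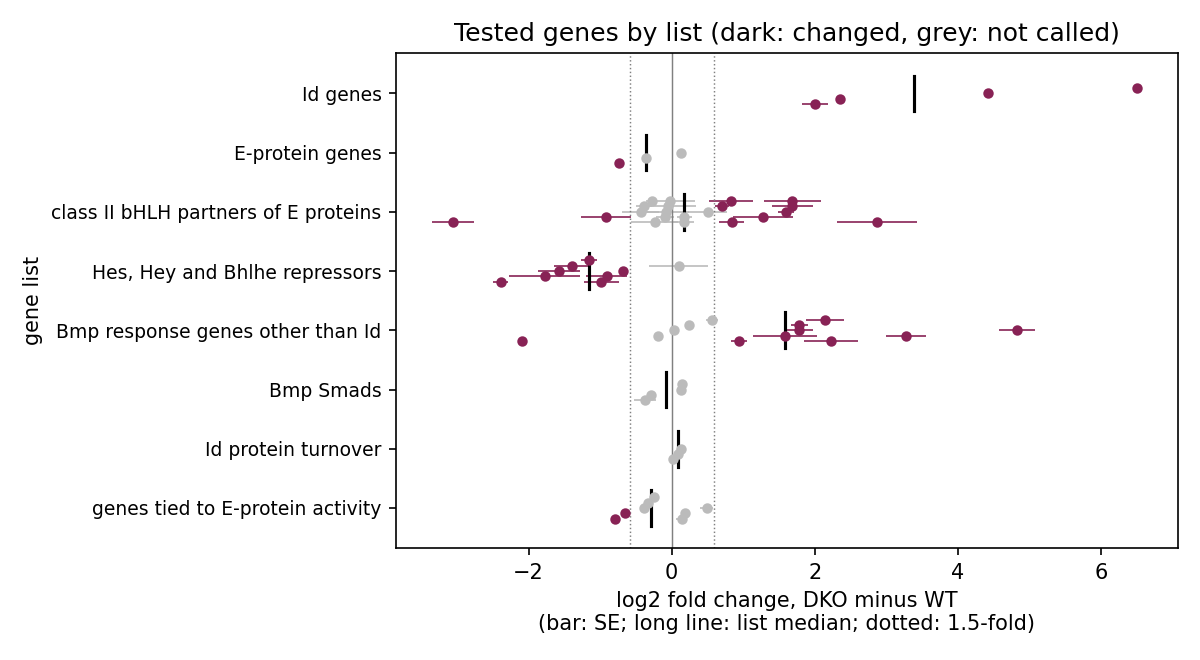
Log2 fold change (DKO minus WT, limma, with SE bars) of each tested gene in the Id and E-protein families and in 6 lists around them, with changed genes dark, other genes grey, list medians as long black lines and 1.5-fold changes as dotted lines. The Id genes lie between 2.00 and 6.51, 8 of 9 Hes, Hey and Bhlhe genes lie left of the dotted line, and the Bmp Smads stay between the dotted lines.

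Markers of other cell types were examined beside the Id genes, and differed by list. Among all tested genes 7.35% were higher and 8.04% lower in DKO. Of 10 trophoblast markers 9 were tested and these 9 were higher in DKO, with summed levels of 219 to 231 normalized reads in WT and 818 to 1040 in DKO. Tfap2c averaged 67.5 of these reads in WT and 390 in DKO, and Ascl2 79.9 and 245. Gata2, Gata3, Plac1, Hand1 and Esx1 passed the filter on low values through their DKO libraries only and so could enter only as higher, and 4 of the 9 passed in both genotypes. Ascl2 and Hand1 on that list are also class II genes, and Gata2 and Gata3 are also Bmp response genes, while Elf5 was too low to test. Of 10 naive pluripotency markers 8 were higher and 2 not called, with sums of 3916 to 4144 and 6735 to 6972, and Tbx3 is shared with the Bmp response list. Extra-embryonic endoderm markers summed to 294 to 330 and 317 to 344, and of the 7 tested Gata6 and Pdgfra were higher and 5 were not called, with Ttr at the floor of 3 reads or fewer in every library. Of 8 fibroblast markers 6 were tested, Dcn and Col1a2 fell, 4 were not called and Postn was at the floor. Their sums were 1624 to 1689 in WT and 521 to 571 in DKO, of which Dcn alone averaged 1330 and 300.4. Neural markers summed to 1771 to 1844 and 1490 to 1496, where Pax6 was higher, Sox1 lower and 3 not called among 5 tested. Most of that sum was Nes, which averaged 868 and 601, and Tubb3, which averaged 766 and 687. Both were lower at an adjusted p under 0.05 by limma but short of the fold threshold. The part of these marker changes in the Id and E-protein values was not tested, and in bulk RNA more cells of a type and more RNA per cell cannot be told apart.

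Finally, the genes whose profiles over the 6 libraries were nearest to those of Id1 and Id3 were sought among 11924 genes that averaged 100 normalized reads or more. Likeness was the Euclidean distance between log2(value + 1) profiles, each centred on its own mean. For Id1 the nearest were H19, an imprinted non-coding RNA (distance 1.02, 114 ± 12.1 to 6014 ± 477 normalized reads), Mir675, which lies within H19 (1.30), and BC052688 (2.01). For Id3 they were BC052688 (0.555, 19.1 ± 0.54 to 586 ± 31.2), Coch (0.892, 139 ± 5.05 to 1837 ± 89.1) and Pgpep1l (1.17, 27.3 ± 7.36 to 352 ± 26.8). Mir675, BC052688 and Pgpep1l averaged under 100 normalized reads in WT and reached that mean through DKO only. With 2 groups of 3 libraries this distance is set mostly by the size of the fold change.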

How the data were processed

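RNA-seq libraries of 3 WT and 3 DKO EpiLC differentiations were used. By the methods of the study, ribosomal reads were filtered out with bowtie2, STAR aligned the rest to mm10, duplicates were dropped with Samtools, and the authors' read counts cover refGene gene bodies. Versions and strand use are not given in the sources used here. The deposited signal is a read count divided by 1 factor per library (1.76 to 1.93). Dividing by the value of 1 read recovered whole reads for 100% of values (tolerance 0.01). The authors' comparison table (fold changes and p-values) was not used.

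The main test was limma 3.58.1 (R 4.3.3, trend, two-sided) on log2(value + 1), which understates changes of low genes, over genes passing filterByExpr (edgeR 4.0.16) with 1 entry per gene. The 138 entries without a symbol (0.517% of reads) were left out. Alternatives were edgeR, DESeq2 1.42.0 and voom on recovered reads, other scalings, pseudocounts (0.1 and 10), filters, thresholds and entries, a replicate block, and leaving out each library. Fits were tested on simulated data. Replicates differed by 3.44 to 5.64 times the sampling variance, so none was a duplicate. Errors cover replicate spread only.

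Gene positions and promoters came from RefSeq (GRCm38.p6) and exon lengths from GENCODE, both on the mm10 assembly. Members and lists were chosen with earlier results of these data known. Genes named are the members, Smad2 and Smad3, list members that changed or were most abundant, and the 3 nearest profiles of Id1 and Id3. Smad2, Bambi, Usp1 and the other list members named without a call were chosen after their values were seen, as were neighbours.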

Additional observations from a re-analysis of the deposited data

How the results depend on the processing

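All 4 Id genes were called higher under each of 18 alternatives to the test, scaling, pseudocount, filter, threshold, entries and libraries, with log2 fold changes of 6.27 to 6.56 for Id1, 2.31 to 2.43 for Id2, 4.33 to 4.48 for Id3 and 1.65 to 2.15 for Id4. Tcf12 stayed lower (-0.77 to -0.70), and the E-protein genes had 1 call in 17 of the 18, whereas without the fold threshold 3 were called. Tcf3 ranged from 0.08 to 0.18, with adjusted p-values (limma) of 0.073 without WT replicate 1 and 0.0531 without DKO replicate 3, and Tcf4 from -0.38 to -0.33. The count of changed genes stayed within 1.5 times the 2623 reported in 16 of 18, but was 9098 without a fold threshold and 1115 in a test against a fold change of 1.5, because these alter the threshold itself. Among the 16, testing all entries gave 3904, a count of entries in which a gene can appear several times. Leaving out 1 library gave 2529 to 2610 changed genes, 4 Id genes and 1 E-protein gene.

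The Id to E-protein ratio in WT and DKO was 1.48 and 30.4 per kilobase of gene body, 0.194 and 3.77 per kilobase of exons, 0.0504 and 0.525 without Id1, 0.0921 and 2.14 without Tcf3, 0.0702 and 1.27 without Tcf4, 0.0880 and 1.39 without Tcf12, and 0.0658 and 1.15 with the entry of lowest total, each moved by which reads or lengths are summed. Leaving out 1 library gave 0.0526 to 0.0567 in WT and 0.989 to 1.06 in DKO.

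Deviations of same-numbered libraries correlated at 0.00881, -0.0293 and 0.0365 over 11930 genes, so no pairing by replicate number was seen over genes at large. These values cannot show whether same-numbered differentiations were run together. With the replicate block 2602 genes changed, and the calls of 4 Id genes and 1 E-protein gene did not differ. The adjusted p of Tcf3 (limma) was 0.00102 with the block and 0.00665 without it, at the same log2 fold change. With 3 libraries of 1 line per genotype, 34 to 47 reads per library limit Id4 in WT, and gene-body counts separate neither isoforms nor, for Id4, an overlapping gene.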

Other observations

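The nearest tested genes on each side of the members, 2.72 to 1211 kb away, were chosen after the members' values were known. Of 8 beside the Id genes 1 was called, a share near the 15.4% of all tested genes, with log2 fold changes of -0.44 to 1.04 and a median of 0.06. The called gene, by limma but not by DESeq2, was Cox4i2, a subunit gene of cytochrome c oxidase that lies 16.5 kb from Id1, with means of 4.38 (WT) and 10.3 (DKO) normalized reads. Its WT mean is under 10 reads, the minimum count of the filter on low values (1 read was 0.533 to 0.569 in WT). Cox4i2 thus passed that filter only with the help of DKO libraries, which favours a call as higher. H13, 27.6 kb away on the other side of Id1, had a log2 fold change of -0.19 ± 0.03. Beside Id3, E2f2, encoding a cell cycle transcription factor, had one of 0.12 ± 0.08, and beside Id2, Kidins220 had one of 0.36 ± 0.03. None of these neighbours changed by an amount near that of its Id gene.

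Of 6 such genes beside the E-protein genes 2 were called, both beside Tcf4 and both with few reads. Mc5r, 1001 kb from Tcf4, had means of 2.87 (WT) and 6.50 (DKO), a change of 1.23 ± 0.52 that DESeq2 did not call. Like Cox4i2, it passed the filter on low values only with the help of DKO libraries. Ccdc68, 237 kb from Tcf4 and with a WT mean of 15.6, had a change of -1.14 ± 0.37. Beside Tcf3, Uqcr11 had a log2 fold change of 0.01 ± 0.03 and Atp8b3 one of -0.40 ± 0.10, neither called. Beside Tcf12, Cgnl1, encoding a junction protein 35.0 kb away, went from 5524 to 3781 normalized reads. Its log2 fold change of -0.55 ± 0.03 was just under the fold threshold. Zfp280d, on the other side, had one of 0.13 ± 0.03.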
